A study of Mus musculus with 48 samples.

Results

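The genes described here encode CCL chemokines. They were chosen by symbol, Ccl2, Ccl3, Ccl4, Ccl5, Ccl6, Ccl7, Ccl8, Ccl9, Ccl12 and Ccl22, and all 10 were found among the 34932 genes measured. RNA-seq was performed on 3 sorted populations, CD4+ T cells, CD8+ T cells and, called CD45 here, the CD45+ cells without CD4 or CD8. They came from subcutaneous B16F10 melanomas as tumor-infiltrating cells (TILs) and from tumor-draining inguinal lymph nodes (TDLNs). The mice were young adult C57BL/6J, either wild-type (WT) or Yap-cKO, which carry floxed Yap alleles, a CD4Cre transgene and, per the methods, an LSL-EYFP reporter that Cre switches on. Whether the WT littermates carried Cre or the reporter is not given in the labels. Each of the 12 groups held 4 libraries, 48 in all. The CD4 promoter drives Cre from the thymic stage in which T cells carry both CD4 and CD8, so CD8+ T cells are deleted as well, whereas most CD45 cells sorted here are not in that lineage.

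Chemokines are small secreted proteins that draw leukocytes along a gradient by binding receptors coupled to G proteins. Many CCL genes are inducible, and those described here divide roughly by the cells they call. Ccl2, Ccl7 and Ccl12 bind Ccr2 and bring monocytes out of bone marrow into inflamed tissue. Ccl8 in the mouse is known as a ligand of Ccr8, and Ccl6 and Ccl9 act mainly on myeloid cells through Ccr1. Ccl3, Ccl4 and Ccl5 draw monocytes and T cells and are made by activated macrophages, natural killer cells and cytotoxic T cells. Ccl22 binds Ccr4, which regulatory and helper T cells carry, and is made by dendritic cells and macrophages. In solid tumors the monocyte-attracting members are typically products of macrophages and tumor stroma, and Ccl5 is a product of effector and memory CD8+ T cells.

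In mouse GRCm38, 9 of the 10 genes lie on chromosome 11, in 2 clusters. The first holds Ccl2 (chr11:82035571-82037453), Ccl7 (chr11:82045712-82047525), Ccl12 (chr11:82101845-82103400) and Ccl8 (chr11:82115185-82116799), all on the plus strand. The second holds Ccl5 (chr11:83525778-83530518), Ccl9 (chr11:83572919-83578636), Ccl6 (chr11:83587882-83593087) and Ccl3 (chr11:83647844-83649355) on the minus strand and Ccl4 (chr11:83662584-83664683) on the plus strand. Ccl22 lies apart on chromosome 8 (chr8:94745590-94751699). Each is annotated as protein coding in GENCODE M21, and values cover whole genes, exons of every annotated transcript together. Ccl2 overlaps the gene Gm17268 on the other strand, and reads of the 2 cannot be told apart if the libraries do not keep strand. RefSeq promoter sequences were matched by symbol for 6 of the 10 genes (Ccl3, Ccl6, Ccl8, Ccl9, Ccl12 and Ccl22). The 250 bases before the start of 4 of them are shown because these genes were called together in the comparison of genotypes in CD8 TILs described later. They are written 5′ to 3′ on the strand of the gene (build GRCm38.p6), with each TATAAA, on either strand, in capitals.
Ccl12, chr11:82101595-82101844, plus strand: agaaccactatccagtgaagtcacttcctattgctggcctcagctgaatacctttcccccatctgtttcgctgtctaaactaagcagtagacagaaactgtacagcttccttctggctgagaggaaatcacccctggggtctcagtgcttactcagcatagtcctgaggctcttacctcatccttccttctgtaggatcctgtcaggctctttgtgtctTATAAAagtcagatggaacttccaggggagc
Ccl8, chr11:82114935-82115184, plus strand: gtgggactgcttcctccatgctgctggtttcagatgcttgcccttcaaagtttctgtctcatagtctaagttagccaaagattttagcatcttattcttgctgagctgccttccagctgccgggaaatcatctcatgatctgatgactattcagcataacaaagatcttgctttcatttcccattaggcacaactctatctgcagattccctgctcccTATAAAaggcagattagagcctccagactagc
Ccl9, chr11:83578637-83578886, minus strand: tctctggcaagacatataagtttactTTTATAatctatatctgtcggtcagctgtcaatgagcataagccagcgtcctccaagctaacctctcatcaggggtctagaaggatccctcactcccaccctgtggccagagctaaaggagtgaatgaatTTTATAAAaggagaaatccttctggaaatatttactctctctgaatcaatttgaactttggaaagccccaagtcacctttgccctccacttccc
Ccl6, chr11:83593088-83593337, minus strand: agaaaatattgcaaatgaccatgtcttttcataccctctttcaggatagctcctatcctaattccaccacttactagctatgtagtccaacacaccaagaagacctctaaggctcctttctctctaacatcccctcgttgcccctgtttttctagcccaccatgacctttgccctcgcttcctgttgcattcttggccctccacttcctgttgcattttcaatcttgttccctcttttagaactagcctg

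The neighbors Ccl12 and Ccl8 each held 1 TATAAA, starting 31 and 32 bases before the start. Ccl9 held 3 matches on 1 strand or the other, 2 of them overlapping, the nearest at 92 bases, and Ccl6 held 0. TATAAA was found in 12.4% of all 32851 promoter windows of the same length. The letters GGAATG, the core that TEAD factors, the DNA-binding partners of Yap, recognize, were in 0 of the 6 windows on either strand and in 12.6% of all windows. AGGAAG, an ETS core, was in 4 of the 6 (Ccl6, Ccl8, Ccl12 and Ccl22) and in 29.5% of all windows, and TGANTCA, the AP-1 motif, was in 1 (Ccl9) and in 6.75% of all. These matches describe the letters only.

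Gene counts per library ranged from 12656302 to 24213689. Levels are CPM, counts scaled to library size, after TMM scaling over all 48 libraries. Sequencing more deeply lowers the level at which a count of 0 is informative: 3 counts, the limit that 0 allows, stood for 0.124 to 0.237 CPM before TMM scaling. The deleted gene, Yap1, was at 14.2 to 25.4 CPM in WT CD4 TILs and 1.70 to 5.70 in Yap-cKO. It was at 12.6 to 25.2 and 2.43 to 6.48 in CD8 TILs and at 2.80 to 5.40 and 1.48 to 2.09 in CD45 TILs. Every TDLN library of either genotype lay between 1.10 and 4.36. By genotype, WT against Yap-cKO, the TDLN means were 1.68 against 1.91 CPM for CD4, 2.30 against 2.20 for CD8 and 2.06 against 1.83 for CD45. Y-linked transcripts (Ddx3y and Eif2s3y both above 5 CPM) marked the 18 WT libraries with replicate numbers 1 to 3 and 0 of the remaining 30, so genotype and sex overlap. Sort markers followed the labels: Cd4 was at 96.3 to 896 CPM in CD4 TILs and at most 5.88 in CD8 TILs, and Cd8a was at 203 to 980.3 in CD8 TILs and at most 1.25 in CD4 TILs. The sum of 12 macrophage markers (Csf1r, Adgre1, Cd68, C1qa and others) was 24366 to 38138 CPM in WT and 20511 to 31612 in Yap-cKO CD45 TILs, and all 12 were also at 1 CPM or more in each T-cell TIL group. The sum of 5 melanocyte markers in TILs of WT against Yap-cKO was 4967 to 15242 against 161 to 2189.6 CPM in CD4. It was 3486 to 12412 against 36.7 to 2348 in CD8 and 1016 to 1694 against 106 to 475 in CD45 TILs. The part of melanocyte RNA in the Yap1 levels of TILs was not tested. The following 2 libraries stand apart, WT CD45 TDLN replicate 4, with a macrophage sum of 4193 CPM against 213 to 1107 in the other 3, and Yap-cKO CD4 TIL replicate 3, with 653 against 122 to 175. In such bulk libraries fewer cells of a type and less RNA per cell cannot be told apart.

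Of the 10 genes, 9 had their highest group mean in CD45 TILs, and Ccl5 had it in Yap-cKO CD8 TILs. Per length, in TPM, Ccl6 made up 35.6% ± 5.67 (SD, n = 4) of the summed TPM of the 10 genes in WT CD45 TILs, and 30.3% ± 3.60 in Yap-cKO. Ccl5 held 64.9% ± 20.4 of that sum in WT CD8 TILs, 70.8% ± 10.2 in Yap-cKO CD8 TILs, 59.7% ± 22.9 and 75.8% ± 6.80 in WT and Yap-cKO CD4 TILs, but 5.08% ± 1.48 and 5.25% ± 0.978 in CD45 TILs. That share was highest in CD8+ T cells of the TDLNs, 91% ± 2.89 in WT and 91.6% ± 2.78 in Yap-cKO. The summed TPM itself was 10184 ± 2205 in WT CD45 TILs, 3694 ± 1722 in WT CD8 TILs, 1114 ± 564 in WT CD4 TILs and 23.4 ± 7.36 in WT CD4 TDLNs. Neighbors in the order of groups were often not separable: for Ccl2, for example, Yap-cKO CD45 TILs (898 to 1248 CPM) and WT CD45 TILs (573 to 1003) came first and overlapped, a clear step followed to Yap-cKO CD8 TILs (44.3 to 116), and the libraries of that group overlapped those of WT CD4 TILs (17.1 to 45.5).

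**Figure D1:**
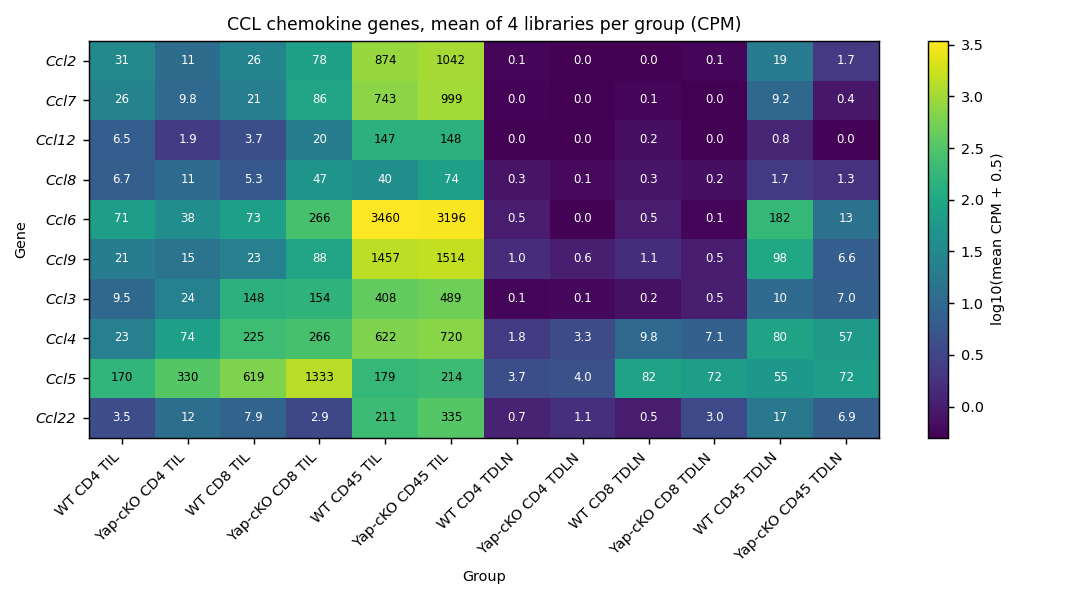
Mean CPM of each CCL gene (rows) over the 4 libraries of each of the 12 groups (columns), printed in each cell and colored by log10(mean CPM + 0.5). Ccl6 peaked at 3460.5 CPM in WT CD45 TILs and Ccl5 at 1333 in Yap-cKO CD8 TILs, while most genes were near 0 in T cells of the TDLNs.

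The first comparison asked how the same sorted population differed between tumor and node, with both genotypes weighted equally over 16 libraries. All 10 genes were called higher in TILs among CD4+ T cells (edgeR quasi-likelihood test; a call needed a Benjamini-Hochberg adjusted p under 0.05 together with a log2 fold change past 1 in size), where 23.3% of all tested genes were called higher. In CD45 cells 10 of 10 were called higher, against 23.8% of all genes, and in CD8+ T cells 9 of 10, against 21.3%. Ccl2, Ccl3, Ccl6, Ccl7, Ccl8 and Ccl12 entered the 2 T-cell comparisons only through their TIL counts, as did Ccl7 and Ccl12 that of CD45 cells, so these calls follow from the filter and are not counted as support. Ccl12, for instance, had 0 counts in all 8 CD4 TDLN libraries, and the highest count of Ccl2 in any T-cell library of the TDLNs was 5.

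Ccl5, Ccl4, Ccl9 and Ccl22 were measurable in T cells of both sites. In WT CD8+ T cells Ccl5 was at 73.4, 106, 93 and 56.3 CPM in the 4 TDLN libraries and at 302, 441, 1231 and 504 in TILs, in Yap-cKO at 90.6, 73.9, 53 and 69.3 and 935, 1287, 1453 and 1658. Every TIL library stood above every TDLN library, with a log2 fold change of 3.60 ± 0.28 (SE; edgeR adjusted p = 6.61e-08). The difference in log2 was larger in CD4+ T cells, 6.03 ± 0.48 (edgeR adjusted p = 6.51e-08), from 2.08 to 5.71 CPM in WT TDLNs to 48 to 328 in WT TILs, and smaller in CD45 cells, 1.61 ± 0.20 (edgeR adjusted p = 2.71e-06); these differences were not tested against each other. Ccl4 changed by 4.17 ± 0.63, 4.92 ± 0.53 and 3.28 ± 0.28 on the log2 scale in CD4, CD8 and CD45 cells, from a node level that was already 50.2 to 154 CPM in WT CD45 cells. Ccl9 was higher in TILs by 4.58 ± 0.43 and 5.98 ± 0.39 in CD4 and CD8 cells. The macrophage marker sum was 9.44 to 43 CPM in the T-cell libraries of the TDLNs and 122 to 2129.8 in those of TILs, and its part in these differences was not tested. Ccl22, the Ccr4 ligand, rose in CD4+ T cells by 2.98 ± 0.95 (edgeR adjusted p = 0.0143), a call lost without Yap-cKO CD4 TIL replicate 3, its highest library (1.13, adjusted p = 0.174). In CD8+ T cells it differed by 1.98 ± 0.84 (adjusted p = 0.0601) and was called once WT CD8 TDLN replicate 4, WT CD8 TIL replicate 2 or WT CD8 TIL replicate 4 was left out (2.10 to 2.35).

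In the CD45 cells the step was large for Ccl2. It was at 4.93, 0.640, 4.96 and 65.3 CPM in WT TDLNs and 929, 573, 990.0 and 1003 in WT TILs, a log2 fold change of 7.38 ± 0.77 over both genotypes. Ccl6 differed by 6.07 ± 0.77 and Ccl9 by 5.84 ± 0.77; their node levels were set largely by WT replicate 4 (657 and 359 CPM), and without that library the differences were 7.54 and 7.38. Ccl7 was at 0.137 to 33.6 CPM in WT TDLNs, highest in the same replicate 4, and at 497 to 956 in WT TILs. Ccl12 and Ccl8 reached at most 33 and 52 counts in a CD45 TDLN library. The macrophage marker sum moved the same way, from 213 to 4193 CPM in WT TDLNs to 24366 to 38138 in WT TILs, and its part in these differences was not tested.

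Among TILs, CD45 cells carried more RNA of all the CCL genes but Ccl5 than either T-cell population did. These 3 comparisons share their libraries. Against CD4 TILs, 9 of 10 were called higher in CD45 TILs (edgeR; 16.6% of all genes), with log2 fold changes from 2.63 for Ccl8 to 6.35 for Ccl9. Against CD8 TILs, 9 were called higher (17.3% of all genes) and Ccl5 was called lower (17.8% of all genes). Ccl5 was at 215, 163, 172 and 165 CPM in WT CD45 TILs and 183, 196, 238 and 241 in Yap-cKO, a log2 difference of -2.24 ± 0.24 from CD8 TILs (edgeR adjusted p = 6.71e-07) and of -0.33 ± 0.33 from CD4 TILs (adjusted p = 0.442). Ccl4, Ccl3 and Ccl8 were nearest to the CD8 level, higher in CD45 than in CD8 TILs by 1.43 ± 0.41, 1.55 ± 0.63 and 1.75 ± 0.54, while the other 6 differed by 4.08 ± 0.36 (Ccl12) to 5.73 ± 0.71 (Ccl22). The call of Ccl3 rested on thin margins (adjusted p = 0.0472) and was lost in 11 of the 16 fits that left out 1 library, and that of Ccl8 was lost without Yap-cKO CD45 TIL replicate 1 (1.03, adjusted p = 0.0516).

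CD8 TILs exceeded CD4 TILs for 4 of 10 genes, where 1.33% of all genes were called higher. The log2 differences were 3.32 ± 0.69 for Ccl3 (edgeR adjusted p = 0.00914), 2.55 ± 0.55 for Ccl4 (adjusted p = 0.0126), 1.92 ± 0.40 for Ccl5 (adjusted p = 0.00920) and 1.28 ± 0.33 for Ccl2 (adjusted p = 0.0358). The first 3 of these are chemokines that activated cytotoxic T cells make. The macrophage marker sum was 803 to 2129.8 CPM in Yap-cKO CD8 against 122 to 653 in Yap-cKO CD4 TILs, and 294 to 709 against 278 to 737 in WT, and its part was not tested. With the replicate number as a block, 8 genes were called, Ccl6, Ccl7, Ccl9 and Ccl12 joining the 4. The call of Ccl2 was lost in 8 of the 16 fits without 1 library, with adjusted p up to 0.0808. Ccl7, Ccl9 and Ccl12 had differences of 1.40 ± 0.40, 1.33 ± 0.39 and 1.29 ± 0.37 (adjusted p = 0.0632, 0.0817 and 0.0641) and all 3 were called without WT CD4 TIL replicate 1. Without Yap-cKO CD4 TIL replicate 3 the calls were 7, Ccl6, Ccl7 and Ccl9 joining. Ccl22 differed by -0.44 ± 0.96 and Ccl8 by 0.88 ± 0.65, neither called.

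The question of the design was what loss of Yap in T cells does to these genes. In CD8 TILs, 6 of 10 were called higher in Yap-cKO, Ccl2, Ccl6, Ccl7, Ccl8, Ccl9 and Ccl12, where 3.03% of all 14121 tested genes were called higher, and 0 were called lower. All 6 are ligands known from monocytes and macrophages, and the macrophage marker sum of the same libraries was 589, 294, 709 and 374 CPM in WT and 803, 2129.8, 2116 and 955 in Yap-cKO, so that no library of one genotype overlapped the other. The T-lineage sum (15 genes such as Cd3e and Trac) did not overlap either, at 2359.8, 2567, 6739 and 5687 CPM in WT and 8932, 8310.5, 8448 and 8209.9 in Yap-cKO. The part of these sums in the calls was not tested beyond the fits given further on. The 10 genes had a median log2 fold change of 1.63 and all tested genes one of 0.08.

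Ccl2, the main monocyte attractant, was at 33.7, 15.7, 36 and 19.1 CPM in WT and 44.3, 88.7, 116 and 62.5 in Yap-cKO. Ccl7, its neighbor in the cluster and a ligand of the same receptor, was at 26.7, 16.6, 22.1 and 19.8 CPM in WT and 46.2, 121, 127 and 48.2 in Yap-cKO, and Ccl12 at 5.13, 2.65, 2.77 and 4.18 CPM in WT and 9.80, 32.8, 25.9 and 11.7 in Yap-cKO. For each of these 3 every Yap-cKO library lay above every WT library. Their log2 fold changes were 1.49 ± 0.37 (edgeR adjusted p = 0.0297), 1.91 ± 0.37 (adjusted p = 0.0185) and 2.35 ± 0.45 (adjusted p = 0.0185), that is 2.80-fold, 3.76-fold and 5.10-fold. Ccl8 had the largest estimate, 3.06 ± 0.65 (adjusted p = 0.0207), from 11.5, 2.57, 3.55 and 3.57 CPM in WT and 24, 107, 26 and 31.8 in Yap-cKO. Most of its Yap-cKO mean came from replicate 2, and the other 3 were at least 24 CPM, above the WT maximum. Ccl6, the most abundant CCL gene of CD45 TILs, was at 108, 28.2, 91.6 and 63.6 CPM in WT and 163, 384, 338 and 178 in Yap-cKO, and Ccl9 at 32, 10.8, 34.1 and 15.1 CPM in WT and 47.2, 118, 113 and 72.7 in Yap-cKO. Their changes were 1.77 ± 0.43 (adjusted p = 0.0293) and 1.84 ± 0.43 (adjusted p = 0.0251). Across all tested genes, 10.7% had every Yap-cKO CD8 TIL library above every WT library, against 6 of the 10 CCL genes.

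Ccl3, Ccl4, Ccl5 and Ccl22 were not called. Ccl5, typical of effector CD8+ T cells, was at 302, 441, 1231 and 504 CPM in WT and 935, 1287, 1453 and 1658 in Yap-cKO, with a log2 fold change of 1.04 ± 0.42 (edgeR adjusted p = 0.114). WT replicate 3 overlapped the Yap-cKO range, and without it the change was 1.63 and was called (adjusted p = 0.0162). Ccl3 was at 94.3, 13.3, 81.9 and 401 CPM in WT and 8.49, 309.7, 119.8 and 179 in Yap-cKO and Ccl4 at 138, 55.5, 202 and 505 CPM in WT and 48.5, 398, 281 and 337 in Yap-cKO. These 2 genes were spread widely within each genotype, both lowest in Yap-cKO replicate 1 among Yap-cKO libraries and both highest in WT replicate 4 among all 8, and their changes were -0.01 ± 0.99 and 0.17 ± 0.69 (adjusted p = 0.997 and 0.879). Ccl22 was at 23.8, 0.207, 6.37 and 1.32 CPM in WT and 2.14, 0.514, 4.35 and 4.79 in Yap-cKO, a change of -1.51 ± 1.13 (adjusted p = 0.360).

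The 6 estimates in CD8 TILs were positive in every alternative run, but the calls were not kept in all of them. Leaving out WT replicate 2 or Yap-cKO replicate 2 left 0 calls, WT replicate 4 left 2 (Ccl7 and Ccl12), WT replicate 1 left 3 (Ccl7, Ccl8 and Ccl12) and Yap-cKO replicate 4 left 4, with adjusted p of the lost calls up to 0.0828. With the macrophage index (mean log2 level of the 12 markers) as a covariate, 0 of the 10 and 1 of all genes were called and the 6 estimates ran from 0.04 to 1.07, lowest for Ccl2 and highest for Ccl8. Scaling on the 15 T-lineage genes moved the median of all genes from 0.08 to -1.08, and on that scale the 6 estimates were 0.35 to 1.70, above that median, with 0 calls. Comparing the 4 Yap-cKO libraries with WT replicate 4 alone, the WT library without Y-linked reads, gave 1.97 to 3.66 and 0 calls (1 of all genes), on the assumption that the lone library varies like the others.

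**Figure D2:**
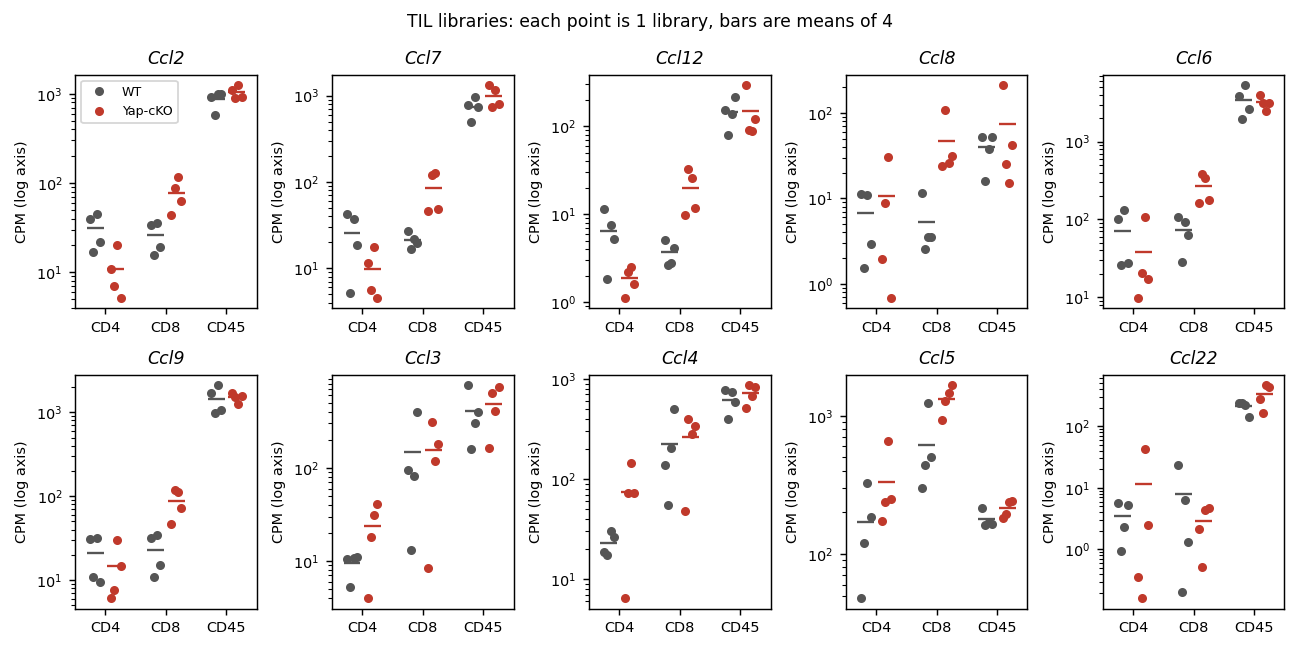
CPM (log axis) of each CCL gene in every TIL library, by sorted population (x axis) and genotype (gray WT, red Yap-cKO), with bars at the mean of 4 libraries. In CD8 TILs the Yap-cKO points of Ccl2, Ccl7, Ccl12, Ccl8, Ccl6 and Ccl9 all lie above the WT points, while those of Ccl3, Ccl4, Ccl5 and Ccl22 overlap.

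In CD4 TILs no CCL gene was called. With edgeR the count was 0 of 10, where 8.02% of all tested genes were called in either direction; 5 had an unadjusted p under 0.05, and DESeq2 called 2. Ccl2 was at 39.9, 17.1, 45.5 and 21.9 CPM in WT and 11, 6.98, 20.3 and 5.18 in Yap-cKO, overlapping only through Yap-cKO replicate 3 and WT replicate 2, with a log2 fold change of -1.51 ± 0.49 (edgeR adjusted p = 0.0893). Ccl12 was at 11.3, 1.82, 7.47 and 5.23 and 1.12, 2.22, 2.51 and 1.59, a change of -1.79 ± 0.56 (adjusted p = 0.0772), and both were called lower by DESeq2. Ccl7 and Ccl6 had changes of -1.40 ± 0.63 and -0.86 ± 0.78 (adjusted p = 0.200 and 0.511). The macrophage marker sum was 686, 309, 737 and 278 CPM in WT and 134, 175, 653 and 122 in Yap-cKO, so its direction was that of these 4 genes in 3 of the 4 Yap-cKO libraries. Without the remaining one, Yap-cKO replicate 3, 4 genes were called lower: Ccl2 (-2.08, edgeR adjusted p = 0.00593), Ccl6 (-2.24), Ccl7 (-1.91) and Ccl12 (-2.03). With the macrophage index as a covariate 0 of the 10 were called, Ccl2, Ccl12 and Ccl7 were at -0.52, -0.94 and -0.03, and Ccl6 turned to 0.60. Scaled on T-lineage genes these 4 were called lower (-3.39 to -2.54), on a scale where the median of all genes was -1.09 instead of 0.14. The part of the macrophage RNA in these differences was not tested further. Shares of all genes called by DESeq2 and in these alternative fits are not given here. Their counts are therefore not read as results about the CCL genes.

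Ccl3, Ccl4 and Ccl5 had positive estimates in CD4 TILs, near 0 or below on the scale of T-lineage genes (-0.02 to 0.39). Ccl4 was at 18.7, 17.3, 30.3 and 26.4 CPM in WT and 6.47, 73, 144 and 71.8 in Yap-cKO, where 3 libraries lay above the WT range and replicate 1 below it (1.69 ± 0.68, edgeR adjusted p = 0.153). Ccl3 had the same order, 10.5, 5.33, 10.9 and 11.1 against 4.00, 18.2, 31.4 and 40.9 (1.33 ± 0.59, adjusted p = 0.196). Without Yap-cKO replicate 1 both were called higher, by 2.08 and 1.69 (adjusted p = 0.0205 and 0.0466). Ccl5 was at 48, 121, 328 and 185 and 174, 238, 660.1 and 249.6 (0.97 ± 0.59, adjusted p = 0.331). Ccl9 (-0.47 ± 0.59), Ccl8 (0.69 ± 1.00) and Ccl22 (1.76 ± 1.34) had adjusted p from 0.430 to 0.689. In Yap-cKO replicate 3 Ccl22 reached 43.6 CPM and was 2.48 or less in the other 3. No CCL gene had every Yap-cKO library below, or every one above, the WT range; 10.9% of all genes had every Yap-cKO library below.

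CD45 TILs, in which Cre is not expected in most cells, showed no called CCL gene: 0 of 10 with edgeR, 0 at an unadjusted p under 0.05 and 0 with DESeq2, where 0.991% of all genes were called. Estimates ran from -0.14 ± 0.30 for Ccl6 to 0.88 ± 0.74 for Ccl8. The standard errors of Ccl5, Ccl2, Ccl4 and Ccl7 were 0.16 to 0.25, the tightest of the 10, around changes of 0.24, 0.23, 0.19 and 0.41. Ccl22 was at 239, 239, 222 and 143 CPM in WT and 277, 165, 459.7 and 438 in Yap-cKO, a change of 0.64 ± 0.31 (adjusted p = 0.302); 3 of the 4 Yap-cKO libraries lay above the WT range. Ccl12 and Ccl8 were carried by Yap-cKO replicate 1 (294 and 212 CPM), and without it their changes were -0.58 and -0.56.

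**Figure D3:**
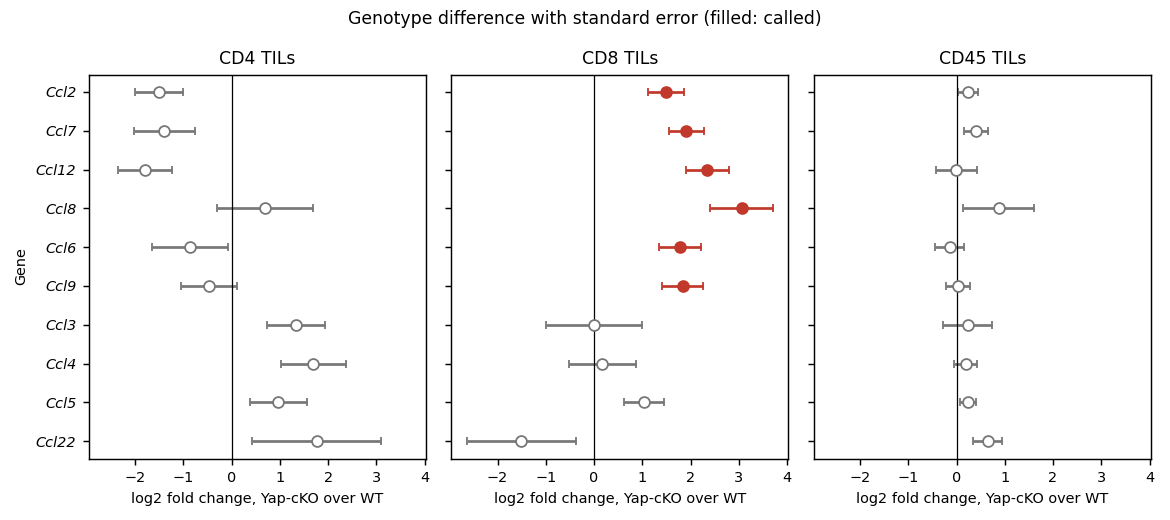
Log2 fold change of Yap-cKO over WT (x axis) with its standard error for each CCL gene (y axis) in CD4, CD8 and CD45 TILs, 4 libraries a genotype. Filled red points were called, 6 in CD8 TILs and 0 in the other 2 populations, and the estimates of Ccl2, Ccl7, Ccl12, Ccl6 and Ccl9 lie on opposite sides of 0 in CD4 and CD8 TILs.

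The difference between the 2 T-cell effects was tested as an interaction over the 16 T-cell TIL libraries, which the comparisons above also use. With edgeR 0 of 10 genes passed, as did 0% of all 15198 tested genes, and 5 of the 10 had an unadjusted p under 0.05. DESeq2 called 3 (Ccl2, Ccl7 and Ccl12). Neither of these 2 counts has a share of all genes beside it, and the 0% of edgeR calls is not their background. The estimates, effect in CD8 minus effect in CD4, were 4.14 ± 0.75 for Ccl12 (edgeR adjusted p = 0.186), 3.31 ± 0.80 for Ccl7 (adjusted p = 0.371) and 2.99 ± 0.65 for Ccl2 (adjusted p = 0.284). Ccl6, Ccl8 and Ccl9 had estimates of 2.64 ± 1.00, 2.37 ± 1.31 and 2.32 ± 0.79, and the others ran from -3.28 ± 1.95 for Ccl22 to 0.05 ± 0.77 for Ccl5. By edgeR there was no call that the genotype effect on a CCL gene differs between CD4 and CD8 TILs.

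In the TDLNs no CCL gene was called between genotypes by edgeR or DESeq2. Ccl4, Ccl5, Ccl9 and Ccl22 were the 4 with enough counts to test in CD4 and in CD8 cells, where 0.0462% and 0.0158% of all genes were called, and 8 of 10 (all but Ccl7 and Ccl12) were tested in CD45 cells, where 0.0596% were called. Unadjusted p was under 0.05 for 0, 1 (Ccl22, 2.51 ± 1.10) and 3 genes. Those 3 were Ccl2, Ccl6 and Ccl9 in CD45 cells, with estimates of -3.42 ± 1.20, -3.74 ± 1.22 and -3.82 ± 1.26 (edgeR adjusted p = 0.998 for each). The values rest on WT replicate 4: Ccl6 was at 32.9, 6.58, 32.3 and 657 CPM in WT and 7.13, 11.7, 16.5 and 16.8 in Yap-cKO, and without that library the 3 estimates were -0.98, -0.80 and -0.75. Ccl5 in CD8+ T cells of the nodes differed by -0.18 ± 0.22 (adjusted p = 0.999), with ranges of 56.3 to 106 CPM in WT and 53 to 90.6 in Yap-cKO.

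Whether each gene follows macrophage or T-cell RNA was examined first by its level relative to the macrophage marker sum of the same library, as CPM per 1000 CPM of macrophage markers. Macrophage RNA of the same makeup as in CD45 TILs would give the same ratio in a T-cell library, and RNA from other cells would add to it. The markers did not keep the same proportions, however. C1qb was at 1493 ± 631 CPM (SD, n = 4) in WT CD45 and 39.9 ± 13.5 in WT CD8 TILs. Csf1r was at 1336 ± 360 and 17.7 ± 5.7, and the marker sum was 31002 ± 6129 and 491 ± 191. A higher ratio therefore does not by itself show RNA from other cells. Every CD4 or CD8 library had a higher ratio than every CD45 library for 97.8% (WT CD4), 97.6% (Yap-cKO CD4), 98.2% (WT CD8) and 94.3% (Yap-cKO CD8) of all genes tested between these populations. Of the 10 CCL genes 4, 3, 6 and 3 did. A higher ratio in T-cell libraries was thus the case for nearly all genes and is by itself no result about a CCL gene. By exact permutation tests, two-sided, of 4 against 4 libraries, these 16 of 40 tests had p = 0.0286, the smallest possible, and an adjusted p of 0.0714, so none passed after adjustment over 40.

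Ccl9 and Ccl6 had ratios in T-cell libraries close to those in CD45 cells. Ccl9 had a ratio (mean ± SD, n = 4) of 45.9 ± 8.02 in WT and 60.5 ± 15.5 in Yap-cKO CD45 TILs, 39.7 ± 5.36 and 64.6 ± 38.3 in CD4 TILs and 45 ± 7.89 and 60.9 ± 10.4 in CD8 TILs. In log2 the T-cell ratio minus that of CD45 was -0.16, 0.04, 0.01 and 0.04 for WT CD4, Yap-cKO CD4, WT CD8 and Yap-cKO CD8 (exact permutation p = 0.314, 0.971, 0.914 and 0.800). For Ccl6 these differences were 0.21, -0.04, 0.42 and 0.55 (exact permutation p = 0.514, 0.943, 0.171 and 0.114), around ratios of 108 ± 25.3 in WT and 129 ± 44 in Yap-cKO CD45 TILs, 127 ± 44.3 and 122 ± 38 in CD4 TILs and 145 ± 39.7 and 182 ± 17.9 in CD8 TILs. Their libraries overlapped in all 4 tests, so the spread of 4 libraries did not separate the populations. Over the 16 T-cell TIL libraries the ratio of Ccl6 stayed between 73.1 and 203, while its CPM ran from 9.76 to 384.

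The Ccr2 ligands stood somewhat higher. Ccl2 had a ratio of 28.3 ± 5.46 in WT and 42.6 ± 14.9 in Yap-cKO CD45 TILs, 63.6 ± 10.6 and 49 ± 22.8 in CD4 TILs and 53.1 ± 3.02 and 54.3 ± 9.74 in CD8 TILs, and the log2 differences were 1.20, 0.25, 0.96 and 0.41, so that both WT T-cell groups lay wholly above WT CD45 TILs (exact permutation p = 0.0286 each) and both Yap-cKO groups overlapped. Over the 16 T-cell TIL libraries its ratio stayed between 31.1 and 82.3, while its CPM ran from 5.18 to 116. The sum of 6 fibroblast markers (Col1a1, Pdgfra and others) was 225 ± 155 CPM in WT CD4 and 159 ± 227 in WT CD8 TILs. It was 20.9 ± 19.5 and 6.63 ± 2.37 in those of Yap-cKO, and 21.7 ± 8.65 in WT CD45 TILs. The melanocyte marker sum was also higher, at 9671 ± 4547 CPM in WT CD4 and 8871 ± 3826 in WT CD8 against 1436 ± 312 in WT CD45 TILs. A sum of 6 endothelial markers (Pecam1, Cdh5 and others) was 264 ± 86.3, 513 ± 569 and 113 ± 40.4 in the same order. The part of RNA from any of these cells in the ratios was not tested. Ccl7 differed by 0.93, 0.19, 0.97 and 0.57 (exact permutation p = 0.143, 0.743, 0.0286 and 0.286) and Ccl12 by 1.52, 1.10, 0.94 and 1.38 (p = 0.0571, 0.143, 0.0571 and 0.114). Ccl8 was further away, with ratios of 1.27 ± 0.555 in WT and 3.31 ± 4.68 in Yap-cKO CD45 TILs, 11.8 ± 5.21 and 29.6 ± 22.9 in CD4 TILs and 10.7 ± 6.24 and 31.5 ± 15.6 in CD8 TILs and log2 differences of 3.35, 3.92, 3.16 and 4.05 (exact permutation p = 0.0286, 0.0571, 0.0286 and 0.0286). Ccl22 varied most among libraries, from 0.241 to 66.7 per 1000 over the T-cell TIL libraries, and its differences were 0.16, 0.21, 0.29 and -2.53.

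Ccl5 lay above the ratio of CD45 TILs in every test, Ccl4 as well though by less, and Ccl3 in 2 of the 4. From 94.3% to 98.2% of all genes did so in these tests, so the separation and its p are no trait of these genes. Ccl5 had a ratio of 5.87 ± 0.963 in WT and 8.54 ± 1.98 in Yap-cKO CD45 TILs, 393 ± 246 and 1429 ± 437 in CD4 TILs and 1274 ± 532 and 1048 ± 521 in CD8 TILs, so that in 3 of the 4 T-cell groups its level was about that of all 12 macrophage markers together. Its log2 differences were 5.69, 7.36, 7.64 and 6.83, each with p = 0.0286 by exact permutation. Ccl4 had 19.9 ± 2.71 in WT and 27.9 ± 2.62 in Yap-cKO CD45 TILs, 54.9 ± 29.3 and 319 ± 235 in CD4 TILs and 515 ± 559 and 183 ± 124 in CD8 TILs, with log2 differences of 1.35, 3.06, 4.20 and 2.45 and the same p in all 4 tests. Ccl3 differed by 0.88, 2.39, 3.93 and 1.95 (exact permutation p = 0.200, 0.0286, 0.0286 and 0.114). Relative to the T-lineage sum, Ccl5 was at 143 ± 43.1 and 158 ± 40.8 CPM per 1000 CPM in CD8 TILs of WT and Yap-cKO mice and at 30.6 ± 9.24 and 31.1 ± 12.6 in CD4 TILs.

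**Figure D4:**
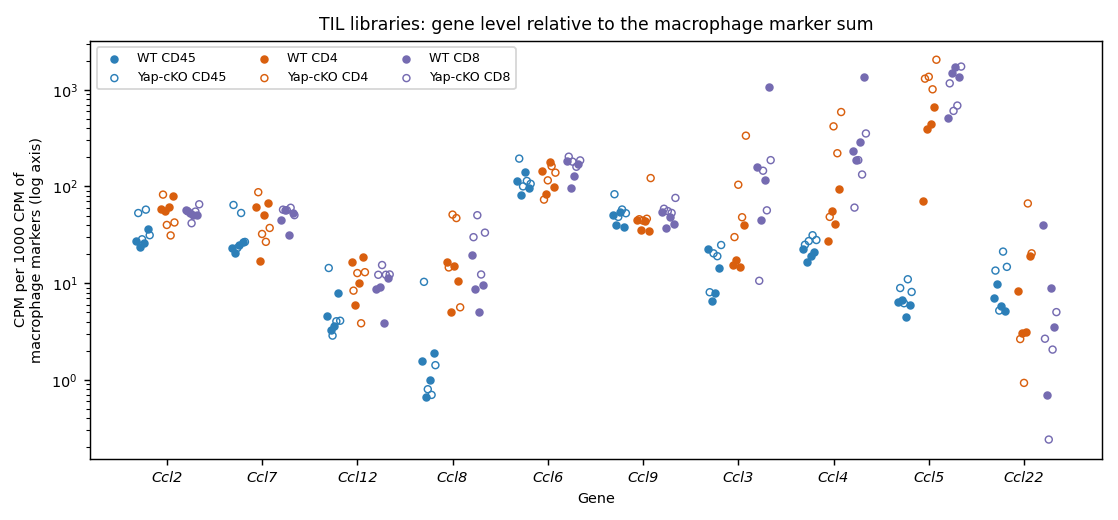
Level of each CCL gene per 1000 CPM of the 12 macrophage markers (log axis) in every TIL library, by population (blue CD45, orange CD4, purple CD8) and genotype (filled WT, open Yap-cKO). Ccl6 and Ccl9 keep about the same ratio in the 3 populations, while Ccl5 goes from 5.87 in WT CD45 to 1274 in WT CD8 TILs.

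The ratios were also compared between genotypes, 30 tests in all. For the 6 genes called in CD8 TILs the log2 ratio in Yap-cKO minus that in WT was 0.00 (p = 1.00) for Ccl2, 0.28 (p = 0.229) for Ccl7, 0.37 (p = 0.171) for Ccl6, 0.41 (p = 0.0571) for Ccl9, 0.61 (p = 0.0571) for Ccl12 and 1.41 (p = 0.0571) for Ccl8, by exact permutation. Because the macrophage sum was higher in Yap-cKO CD8 TILs, dividing by it lowers the difference of every gene, whatever cell made its RNA. That these values are smaller than the log2 fold changes is therefore no result about the 6 genes. Ccl5, not called, differed by -0.27 as a ratio, beside a log2 fold change of 1.04. The CD8 TIL ratios of Ccl2 were 50.7 to 57.3 in WT and 41.6 to 65.4 in Yap-cKO, and its CPM differed 2.80-fold. Genotypes did not overlap in 3 of the 30 tests, Ccl5 and Ccl9 in CD4 TILs (2.20 and 0.58) and Ccl4 in CD45 TILs (0.49), each with an exact permutation p = 0.0286 (adjusted p = 0.245), and 0 of 10 did so in CD8 TILs. Of all tested genes 9.03%, 38.9% and 7.08% did not overlap in CD4, CD8 and CD45 TILs. Ccl5 relative to the T-lineage sum, an alternative chosen after seeing the data, differed between genotypes by -0.01 in CD4 (exact permutation p = 0.971) and 0.17 in CD8 TILs (p = 0.600).

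The second view was within genotypes, so that a shared genotype difference cannot create a relation. Deviations of log2(CPM + 0.5) from the genotype mean were correlated with those of a macrophage and a T-lineage index (mean log2 level of the list) over the 8 libraries of each TIL population, 60 relations in all, with two-sided exact permutation p over every order of the libraries within genotypes. None passed after adjustment over the 60 (lowest adjusted p = 0.0521); 9 relations with the macrophage index and 1 with the T-lineage index had an unadjusted p under 0.05. All 10 of these were positive. No share of all genes with such a relation is given beside these counts, so they are not read as a trait of the CCL genes.

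The relation of Ccl2 with the macrophage index in CD4 TILs was among the closest (n = 8): by exact permutation Pearson r was 0.95 (p = 0.00347, adjusted p = 0.0521), Spearman rho was 0.95 (p = 0.00694, adjusted p = 0.139) and r without the 2 farthest libraries was 0.93. Ccl7 and Ccl8 had r of 0.79 and 0.89 with it, and Ccl6 one of 0.88. Exact permutation p for these 3 ran from 0.00174 to 0.0330 (adjusted p = 0.0521 to 0.208), rho was 0.67 to 0.93 (p = 0.00347 to 0.132) and r without the 2 farthest libraries was 0.71 to 0.92. In CD8 TILs the largest were those of Ccl7 (0.92), Ccl2 (0.88), Ccl9 (0.88) and Ccl6 (0.83), and that of Ccl12 (0.76) fell to 0.04 without the 2 farthest libraries, so it rests on them. Exact permutation p for the first 4 ran from 0.0104 to 0.0538 (adjusted p = 0.104 to 0.294), rho was 0.71 to 0.86 (p = 0.0156 to 0.104) and r without the 2 farthest libraries was 0.73 to 0.92. In CD45 TILs, where the macrophage sum was highest, Ccl6 followed the index closely (n = 8): by exact permutation Pearson r was 0.97 (p = 0.00174, adjusted p = 0.0521), Spearman rho was 0.98 (p = 0.00347, adjusted p = 0.104) and r without the 2 farthest libraries was 0.93. Ccl9 had r = 0.92 there (exact permutation p = 0.00347, 0.76 without the 2 farthest), whereas Ccl2 (0.44), Ccl3 (0.01) and Ccl22 (-0.20) had small or negative values.

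Ccl5 gave the 1 relation with the T-lineage index. In CD4 TILs (n = 8), by exact permutation, Pearson r was 0.91 (p = 0.0104, adjusted p = 0.104), Spearman rho was 0.90 (p = 0.0208, adjusted p = 0.179) and r without the 2 farthest libraries was 0.84. In CD8 TILs r was 0.74 (exact permutation p = 0.0920) and 0.33 without the 2 farthest libraries. With the macrophage index the r of Ccl5 was 0.34 in CD4 and 0.29 in CD8 TILs. Without the 2 libraries farthest on that index it was 0.93 and 0.43. In CD4 TILs Ccl2, Ccl6 and Ccl7 had r of 0.10, 0.11 and -0.11 with the T-lineage index, and 0.88, 0.89 and 0.80 without the 2 farthest. These values do not separate the 2 indices for Ccl5. Ccl3 and Ccl4 had r of 0.17 and 0.30 with the macrophage index and 0.05 and 0.27 with the T-lineage index in CD4 TILs, and 0.41, 0.37, 0.27 and 0.40 in CD8 TILs. Each of these 8 values had an unadjusted exact permutation p above 0.05. Without the 2 farthest libraries the values in CD4 TILs were 0.60, 0.56, 0.07 and 0.06 in the same order. In CD8 TILs they were 0.05, 0.03, -0.84 and -0.82, so the sign with the T-lineage index there turned.

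**Figure D5:**
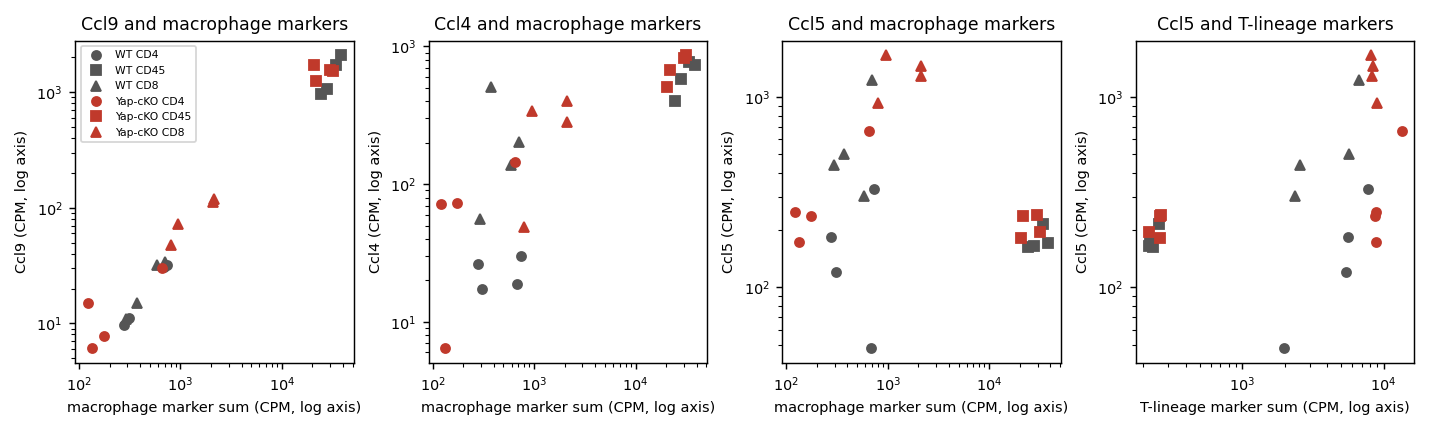
CPM of Ccl9, Ccl4 and Ccl5 against the macrophage marker sum, and of Ccl5 against the T-lineage sum, in the 24 TIL libraries (both axes log; circles CD4, triangles CD8, squares CD45; gray WT, red Yap-cKO). Ccl9 lies along one line from T-cell to CD45 libraries, while Ccl5 is lower in CD45 TILs (163 to 241 CPM) than in Yap-cKO CD8 TILs despite their higher macrophage sum.

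Over all 48 libraries, the genes with the most similar pattern to each CCL gene were listed as the 3 highest Pearson r of log2(CPM + 0.5) among 13283 genes with a mean of at least 1 CPM. These r are descriptions, since the libraries share tissue, sort and depth and any gene of one sorted population correlates with others of it. Ccl7 came closest to C1qb (0.99), C3ar1 (0.99) and C1qa (0.98), Ccl2 to C1qb (0.98), C5ar1 (0.98) and Rab3il1 (0.98), and Ccl8 to Folr2 (0.94), C1qc (0.93) and C1qa (0.93); C1qa, C1qb and C1qc encode the complement C1q chains and are 3 of the 12 macrophage markers. Ccl12 was nearest to C3ar1 (0.98), Fcrls (0.98) and Mrc1 (0.98), Ccl9 to C5ar1 (0.99), Slc11a1 (0.99) and Fcgr3 (0.98) and Ccl6 to Wfdc17 (0.98), Cd14 (0.98) and C5ar1 (0.98), where Cd14 and Mrc1 are also among the markers. Ccl5 had a different set, Dapk2 (0.96), Tbx21 (0.89) and Xcl1 (0.88); Tbx21 encodes T-bet, the regulator of type 1 and cytotoxic lymphocytes, and Xcl1 a chemokine of CD8+ T and NK cells. Ccl3 was nearest to Cx3cr1 (0.94), Spp1 (0.93) and Adssl1 (0.93), Ccl4 to Fcer1g (0.93), Adssl1 (0.93) and Borcs7 (0.92), and Ccl22 to Nudt17 (0.93), Zmynd15 (0.92) and Fcor (0.92).

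The receptors of these ligands were read from a list of 13 genes. In CD8 TILs 2 of 10 tested were called higher in Yap-cKO (3.03% of all genes) and 0 lower: Ccr2, the receptor of Ccl2, Ccl7 and Ccl12, by 2.10 ± 0.37 on the log2 scale (edgeR adjusted p = 0.0180), and Ccr4, the receptor of Ccl22, by 2.80 ± 0.69 (adjusted p = 0.0303). Mean CPM went from 25.5 ± 11 to 114 ± 43 for Ccr2 and from 0.759 ± 0.284 to 5.68 ± 5.74 for Ccr4 (SD, n = 4). Ccr2 was at 902 ± 77.9 and 1167 ± 362 CPM in WT and Yap-cKO CD45 TILs, and the macrophage sum in CD8 TILs was 294 to 709 CPM in WT and 803 to 2129.8 in Yap-cKO; its part in the call was not tested. In CD4 TILs 2 of 11 were called higher and 0 lower (8.02% of all genes in either direction), Ccr8 by 1.73 ± 0.39 (adjusted p = 0.0238) and Ccrl2, an atypical receptor that presents chemerin, by 1.75 ± 0.30 (adjusted p = 0.0102). The T-lineage sum in CD4 TILs was 1983 to 7726 CPM in WT and 8699 to 13443 in Yap-cKO, without overlap. Its part in these calls was not tested. The median log2 change of the tested receptors was 1.29 in CD8 TILs and 1.64 in CD4 TILs, beside 0.08 and 0.14 for all genes. Of 8 tested in CD45 TILs 0 were called by edgeR, with 2 at an unadjusted p under 0.05.

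Of 11 other CCL genes (Ccl1, Ccl11, Ccl17, Ccl19, Ccl20, Ccl21a, Ccl24, Ccl25, Ccl26, Ccl27a and Ccl28), 5 were tested in each TIL population. Ccl1, a ligand of Ccr8 made by activated T cells, was called higher in Yap-cKO CD4 TILs (1.80 ± 0.47, edgeR adjusted p = 0.0396), with means of 11.3 ± 7.23 and 39.4 ± 13.4 CPM. The T-lineage sum of these libraries was also higher in Yap-cKO, and its part in this call was not tested. Beyond Ccl1, edgeR called 0 others in CD4, CD8 or CD45 TILs, where 1 more had an unadjusted p under 0.05, in CD45 TILs. In CD45 TILs Ccl24 and Ccl17 had the highest CPM of this list, at 92 ± 39.1 and 45 ± 12.5 CPM in WT and 306 ± 416 and 63.5 ± 41.9 in Yap-cKO.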

How the data were processed

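The 48 RNA-seq libraries (12 groups of 4, grouped by the labels) were prepared from sorted cells with a SMART-Seq v4 kit. Per the methods and labels, the authors quantified them with Salmon 0.9.1 on GRCm38 (mm10). For each transcript the deposited tables hold the expected count, the TPM, and the effective length in bases, a value of another kind that entered only the length offsets. Transcripts were matched without version to GENCODE M21 (111787 of 112092; the others held 0.0488% to 0.180% of counts). Expected counts were summed per gene and rounded.

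Genes with at least 10 counts in 4 libraries of a fit were tested with edgeR 4.0.16 (quasi-likelihood, TMM, Benjamini-Hochberg over all tested genes, R 4.3.3), and called where the adjusted p was under 0.05 and the log2 fold change past 1 in size. The alternatives were DESeq2 1.42.0, no filter, length offsets, replicate block, T-lineage scaling, a macrophage covariate, WT replicate 4 alone and leaving out each library. Ratios and correlations used log2(value + 0.5) and exact permutation tests (scipy 1.17.1), two-sided. The CCL genes, marker lists and tests were chosen with earlier results of these data known. The named genes are the 10 CCL genes, the called genes of the receptor and other CCL lists, and the 3 nearest in pattern; 1 gene of the receptor list is not reported here. The scripts were tested on simulated data. No libraries of a group held identical counts (0 of 72 pairs). The labels do not say whether replicates, or libraries with the same number, came from separate mice, so p-values measure the spread between libraries.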

Additional observations from a re-analysis of the deposited data

Results flagged for a closer look

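Of 101 sets of 4 libraries (a CCL gene in a group), 16 held a library far from the other 3 by Dixon's test on CPM. Chance gives about 1 in 20 only for independent, normally distributed values. These genes vary together between libraries and CPM was not log-scaled, so the count is not set against that rate. WT CD45 TDLN replicate 4 was high for 7 genes, with Ccl2 at 65.3 CPM, Ccl3 at 25.7, Ccl4 at 154, Ccl6 at 657, Ccl7 at 33.6, Ccl9 at 359 and Ccl22 at 49.3. Its macrophage marker sum was high as well (4193 CPM). Yap-cKO CD4 TIL replicate 3 was high for Ccl5 (660.1 CPM), Ccl6 (106 CPM) and Ccl22 (43.6 CPM). Yap-cKO CD45 TIL replicate 1 was high for Ccl8 (212 CPM) and Ccl12 (294 CPM). Ccl8 was also high in Yap-cKO CD8 TIL replicate 2 (107 CPM) and WT CD8 TIL replicate 1 (11.5 CPM). Ccl3 was low in WT CD4 TIL replicate 2 (5.33 CPM), and Ccl12 in WT CD8 TDLN replicate 1 reached 0.726 CPM, which is 12 counts. The reasons were not tested.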

How the results depend on the processing

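The text gives counts of the 10 CCL genes called. Shares of all genes called in these alternative runs are not given beside them. The counts describe how calls moved and are not set against a background. In CD8 TILs, the 6 calls between genotypes became 0 with the replicate block, with T-lineage scaling, with the macrophage covariate and with WT replicate 4 only, and ranged from 0 to 7 when 1 library was left out. In CD4 TILs, the 0 calls became 2 with DESeq2, 2 without the count filter, 1 with the replicate block (Ccl2), 4 with T-lineage scaling and 0 to 4 when 1 library was left out. In CD45 TDLNs, WT replicate 4 only gave 3. The 4 calls of CD8 over CD4 TILs became 7 with DESeq2, 7 without the filter, 8 with the replicate block and 3 to 7 when 1 library was left out. The interaction went from 0 to 3 with DESeq2 and 2 with the replicate block. The ratio between genotypes to Csf1r alone gave 1 of 30 at an unadjusted p under 0.05 in place of 3. The cause of these changes was not tested.

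The labels give no pairing by replicate number. Between genotypes, same-numbered pairs included a negative r in each population and tissue (lowest r in CD8 TILs -0.38, where 0 of 8 libraries correlated best with their own number). Between TIL populations all 4 pairs were above 0.1 for WT CD45 and CD4 (lowest 0.23), WT CD45 and CD8 (0.13) and Yap-cKO CD8 and CD4 (0.18). There 8, 7 and 7 of 8 libraries correlated best with their own number. Each comparison fits both genotypes, and the other genotype had a pair below 0.1 (lowest -0.27, -0.03 and -0.02), with 4, 5 and 5 of 8. The numbers were not used as pairing in the main fits. Per the paper, each tumor gave both sorted T-cell populations, so their libraries may share mice. The main comparisons of populations and the interaction leave out such pairing. The block also moved Ccl22 in CD4 TIL against TDLN to an adjusted p of 0.0610 (edgeR). With the monocyte list, 21 of the 40 ratio tests between populations and 1 of 30 correlations with that index had an unadjusted p under 0.05.

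With 4 libraries a group, exact tests cannot go below p = 0.0286, and sex, replicate 4 of WT aside, cannot be told apart from genotype.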
